A study of Mus musculus with 9 samples.

Results

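The 39 interferon-stimulated genes described here are genes whose transcription is raised by interferons, and they were taken as a list of symbols and measured in mouse subcutaneous fat with 3 genotypes. They are 39 of the 35071 genes assembled from the deposited transcripts, and all 39 passed the low-count filter, as 17968 genes did. The libraries came from mice labelled Homo KO (n = 3), Hete KO (n = 3) and WT (n = 3), all of strain C57BL/6 and 24 weeks old, where KO stands for loss of AGO1 from the endothelium and WT animals are littermates. Neither the alleles nor the driver of the deletion was given in the sources used here. The whole tissue was sequenced, so a lower level of a transcript from fewer cells of a type and one from less RNA per cell cannot be told apart. The labels number the replicates but do not say that each is a separate animal, and p-values measure only the spread between these libraries.

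Interferons are secreted proteins that bind receptors on nearby cells and signal through JAK kinases to STAT transcription factors. Type I interferons assemble STAT proteins and IRF9 into a complex that binds the interferon-stimulated response element (ISRE), and interferon gamma acts through STAT dimers on the gamma-activated sequence (GAS). The induced genes include sensors of viral RNA, the transcription factors of the pathway itself, and effectors that block viral translation, entry or replication. In fat, macrophages, endothelial cells and adipocytes can all express them.

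The promoters of the genes were searched for the core letters of both elements, GAAA, any 2 bases and GAAA for the ISRE and TTCNNNGAA for the GAS, on both strands and with overlapping matches counted. RefSeq windows (GRCm38.p6) that run from 250 bases before a gene's start to 50 after it matched 29 of the 39 members by symbol. The ISRE core was present for 20 of the 29 members (69.0%), against 3.99% of all 27025 genes with a window, and the GAS core for 10 of the 29 (34.5%), against 9.55%. A match is a description of the letters and not a measured binding site. The 200 bases before the start are given for the 5 members with the smallest p in Homo KO against WT that hold a match there, 5′ to 3′ on the gene's strand, with matches to either core in capitals.
Gbp7, chr3:142530136-142530335, plus strand: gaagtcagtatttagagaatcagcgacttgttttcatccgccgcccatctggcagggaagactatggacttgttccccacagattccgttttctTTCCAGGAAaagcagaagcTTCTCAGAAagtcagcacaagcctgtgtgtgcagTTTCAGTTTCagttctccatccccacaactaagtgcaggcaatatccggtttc
Irgm2, chr11:58214777-58214976, plus strand: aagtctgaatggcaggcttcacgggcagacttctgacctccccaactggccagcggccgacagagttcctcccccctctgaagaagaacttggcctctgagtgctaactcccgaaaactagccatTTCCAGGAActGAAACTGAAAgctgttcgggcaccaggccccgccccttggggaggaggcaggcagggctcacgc
Ifit3, chr19:34583329-34583528, plus strand: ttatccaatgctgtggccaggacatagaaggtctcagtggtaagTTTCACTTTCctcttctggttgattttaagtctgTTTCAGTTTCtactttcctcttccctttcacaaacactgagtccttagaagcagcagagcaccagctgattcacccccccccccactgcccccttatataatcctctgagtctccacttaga
Gbp3, chr3:142559844-142560043, plus strand: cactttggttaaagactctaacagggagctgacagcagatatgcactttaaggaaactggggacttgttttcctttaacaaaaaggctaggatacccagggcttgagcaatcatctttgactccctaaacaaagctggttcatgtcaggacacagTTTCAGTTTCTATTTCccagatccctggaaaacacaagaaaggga
Ifit3b, chr19:34607757-34607956, plus strand: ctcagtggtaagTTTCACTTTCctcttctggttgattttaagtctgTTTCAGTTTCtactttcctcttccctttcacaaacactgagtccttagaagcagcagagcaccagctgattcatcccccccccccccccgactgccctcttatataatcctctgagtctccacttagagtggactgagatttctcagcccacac
The starts are those of RefSeq and can differ from those of the annotation used for counting. There, the span of Irgm2 begins at 58199618, before its printed window, and that of Gbp3 at 142560026, inside its window. Gbp7 and Irgm2 hold both cores and Gbp3 holds 2 overlapping ISRE cores. Ifit3 and Ifit3b carry the same pair of ISRE cores in the same spacing, beginning 156 and 122 bases before the start of Ifit3 and 188 and 154 bases before that of Ifit3b. At the best offset without gaps, 32 bases, the windows of Ifit3 and Ifit3b matched at 201 of 268 positions. The run of C bases after the cores is longer in Ifit3b, so bases beyond it were compared out of register. The matches of Ifih1 and Ifitm3 lie after the start, with first bases at position 33 for Ifih1 and at positions 3 and 20 for the ISRE cores of Ifitm3, and are not printed.

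Each library held between 20843427 and 28252001 estimated counts. Ago1, the targeted gene, had between 25.8 and 62.2 CPM in Homo KO, 51.2 and 60.1 in Hete KO, and 63.4 and 69.9 in WT, where CPM is the count scaled by library size and TMM factor. It differed from WT by -0.43 on the log2 scale in Homo KO (edgeR adjusted p = 0.441) and by -0.21 in Hete KO (edgeR adjusted p = 0.699). The 10 skeletal muscle markers held 2.65% of the counts in Hete KO 2, and 1.02 and 0.968% in WT 1 and WT 2, against at most 0.122% in the other 6 libraries. The 8 liver markers held 0.104 and 0.0932% in WT 2 and WT 3, and at most 0.0209% elsewhere.

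The members were expressed at low to moderate levels. On the TPM scale, which is per transcript length and allows levels to be compared between genes, the mean over 9 libraries ran from 1.32 for Oas3 to 63.6 for Ddx58, which encodes the RNA sensor RIG-I. Irf1, a transcription factor induced by interferon gamma, followed at a mean of 53.7 TPM and Ifitm3, a membrane protein that blocks virus entry, at 50.9 TPM. The TPM of a gene adds up all its transcripts. Counts given to short ones, such as Ddx58-206 (541 bases) and Irf1-206 (515 bases), weigh more in this ranking. Isg15, a ubiquitin-like protein joined to other proteins in antiviral cells, was near the bottom at 2.19 TPM, with between 10 and 36 counts per library. Of the 21 genes that encode interferons themselves, 6 had any count and 1 passed the filter, Ifnk, an interferon of keratinocytes, with between 0.713 and 2.90 CPM.

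**Figure D1:**
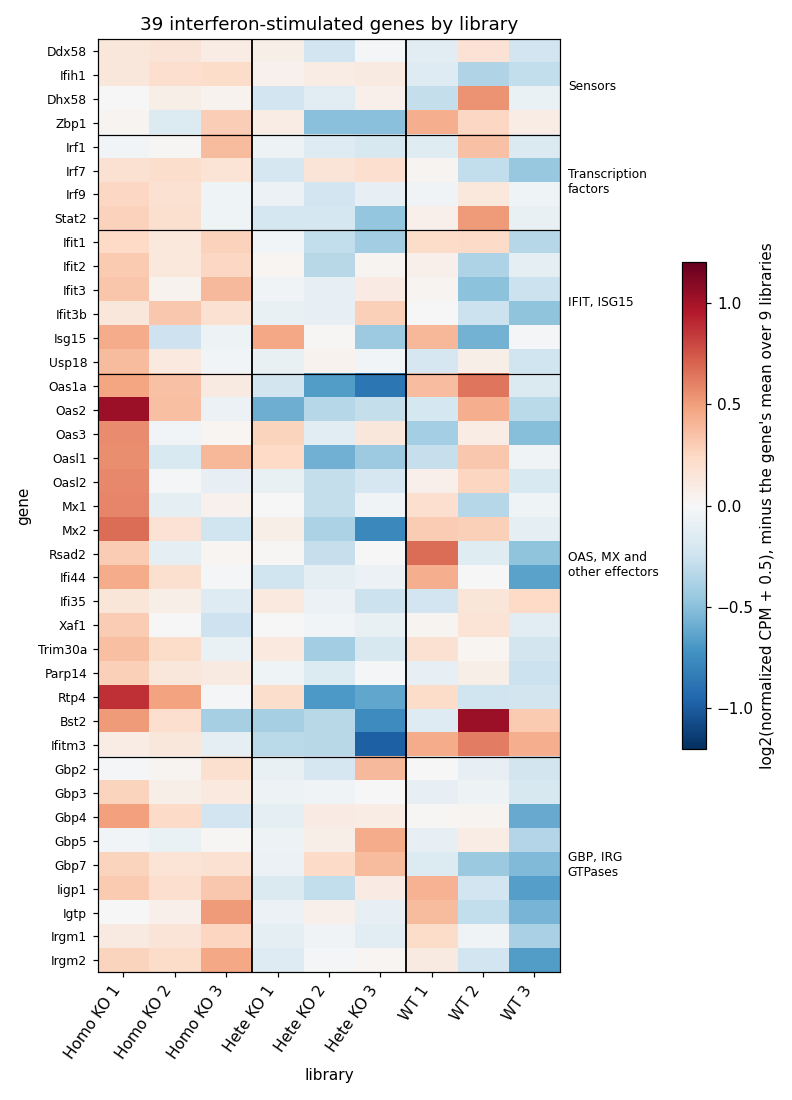
Level of each of the 39 genes in each library, as log2(normalized CPM + 0.5) minus the gene's mean over the 9 libraries, with genes in rows by role and libraries in columns by group. Most rows are above their mean in Homo KO 1 and below it in WT 3.

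Homo KO set against Hete KO gave the most one-sided pattern of the pairwise comparisons. Of the 39 genes, 38 had a log2 fold change above 0, against 50.6% of all tested genes, and the exception was Gbp5 (-0.21). The 3 Homo KO libraries lay above all 3 Hete KO libraries for 16 of the 39 (41.0%), against 5.73% of all tested genes, and below them for none, against 5.64%. None of the 39 passed the test, as was so for all 17968 genes by edgeR (0%). At an unadjusted p under 0.05, 7 members were higher (2.25% of all tested genes) and 0 were lower (3.2%), and DESeq2 called 0 members in either direction (0.0223% of all genes higher and 0.0223% lower). The median log2 fold change of the members was 0.27, against 0.00 over all genes. Homo KO had the highest group mean for 31 members, Hete KO for 1 and WT for 7, whereas over all tested genes Homo KO was highest for 26.4%. Without Hete KO 2, the Hete KO library with muscle transcripts, 36 of 39 were above 0 and 19 of 39 did not overlap, against 9.32% of all genes.

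The libraries were not alike within a group. Homo KO 1 held the highest value of the 9 libraries for 16 members, Homo KO 2 for 2 and Homo KO 3 for 7. WT 3 held the lowest value for 16 members, against 1 for WT 1 and 5 for WT 2. Without Homo KO 1, 33 of the 39 were above 0 in Homo KO against Hete KO. Of these 39, 17 were higher without overlap, against 10.4% of all genes. In the fit without Homo KO 1, 2 of the 39 (5.13%) had an unadjusted p under 0.05, close to the 3.81% of all genes tested there.

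Markers of other cell types differed in direction in this comparison. All 8 macrophage markers and all 8 endothelial markers had a log2 fold change above 0 in Homo KO against Hete KO, with medians of 0.56 and 0.25, and none was called. All 6 adipocyte markers were above 0 as well, with a median of 0.05. All 10 skeletal muscle markers were below 0, with a median of -5.94, as were 2 of 3 tested plasmacytoid dendritic cell markers (median -0.32) and 3 of 4 B cell markers (median -0.13). The dendritic cell, neutrophil, T and NK cell and progenitor lists had medians above 0 (0.32, 0.30, 0.14 and 0.08). Of their tested markers, 2 of 5, 1 of 2, 3 of 8 and 2 of 4 were below 0. Some summed levels were low, at 2.81 to 10.6 CPM for B cells, 1.52 to 9.35 for neutrophils and 12.1 to 18.8 for plasmacytoid dendritic cells. The summed level of the macrophage list was between 515 and 790 CPM in Homo KO, 369 and 590 in Hete KO, and 728 and 1117 in WT. That of the endothelial list was between 728 and 1072 CPM in Homo KO, 702 and 803 in Hete KO, and 737 and 1005 in WT, with its highest value in Homo KO 1. No marker of either list was at 0. Their part in the levels of the interferon-stimulated genes was not tested.

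**Figure D2:**
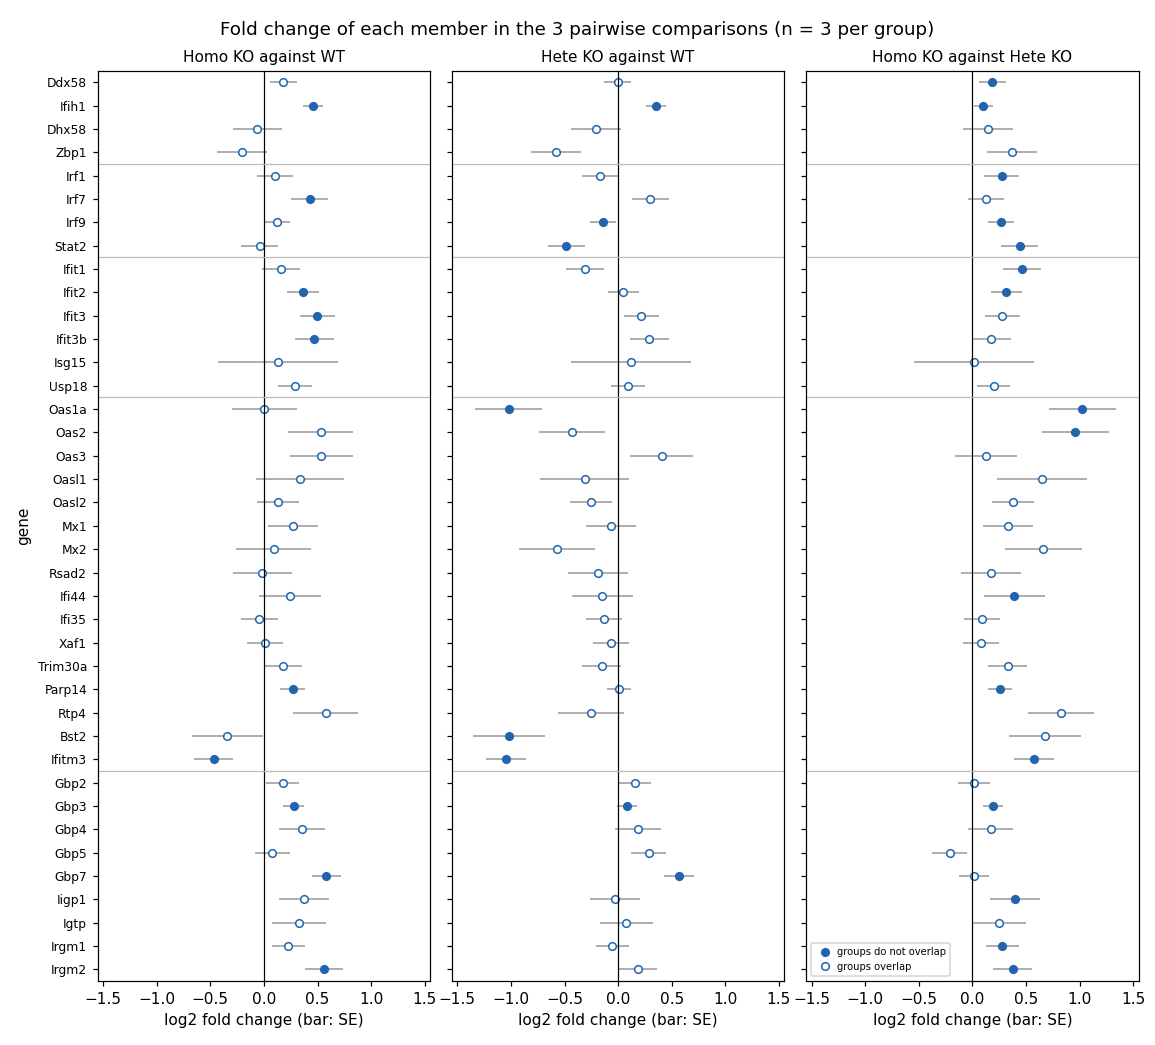
Log2 fold change of each gene with its SE in Homo KO against WT, Hete KO against WT and Homo KO against Hete KO (n = 3 libraries per group), where filled points are genes whose libraries do not overlap between the groups. In the third panel 38 of the 39 points lie above 0, while Hete KO against WT has 16 above 0.

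In Homo KO against WT, 32 of the 39 members had a log2 fold change above 0, against 49.3% of all tested genes, with a median of 0.23 against -0.01 over all genes. None passed the edgeR test, nor did any of the 17968 genes (0%). DESeq2 called 2 members higher (1.61% of all genes) and 0 lower (2.02%). At an unadjusted p under 0.05, 9 members were higher (7.75% of all genes) and 1 was lower (8.68%). The same numbers of members had groups that did not overlap, 9 higher against 10.9% of all genes and 1 lower against 11.2%. Without WT 2, 16 members were higher without overlap, when 14.7% of all genes were. Without WT 3, which held the lowest value for 16 members, 9 members were higher without overlap (23.1%), when 16.7% of all genes were. The median was then 0.13 and 27 of the 39 were above 0. In that fit 5 of the 39 (12.8%) had an unadjusted p under 0.05, against 16.2% of all genes. Without Homo KO 1 it was also 5 (12.8%, against 14.8% of all genes), and 27 were above 0. Without WT 2 it was 10 (25.6%, against 11.0%).

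In Hete KO against WT, 16 of the 39 members were above 0, against 51.4% of all tested genes, and the median was -0.07 against 0.02 over all genes. The sign of that median turned without the libraries over 1% muscle transcripts (WT 1 and Hete KO 2), at 0.064, and without WT 1 alone, at 0.072. None passed the edgeR test, against 0.417% of all genes, with 0.15% called higher and 0.267% lower. DESeq2 called 2 members higher (3.62% of all genes) and 3 lower (5.7%). At an unadjusted p under 0.05, 2 members were higher (9.71% of all genes) and 5 lower (12.1%). The groups did not overlap for 3 members on the higher side (12.6% of all genes) and 5 on the lower side (12.1%). Both comparisons use the same WT libraries. All 8 macrophage markers were below 0 in both, with a median of -0.63 in Homo KO and -1.17 in Hete KO, where C1qc, a complement gene, was called lower, and their part in these values was not tested.

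**Figure D3:**
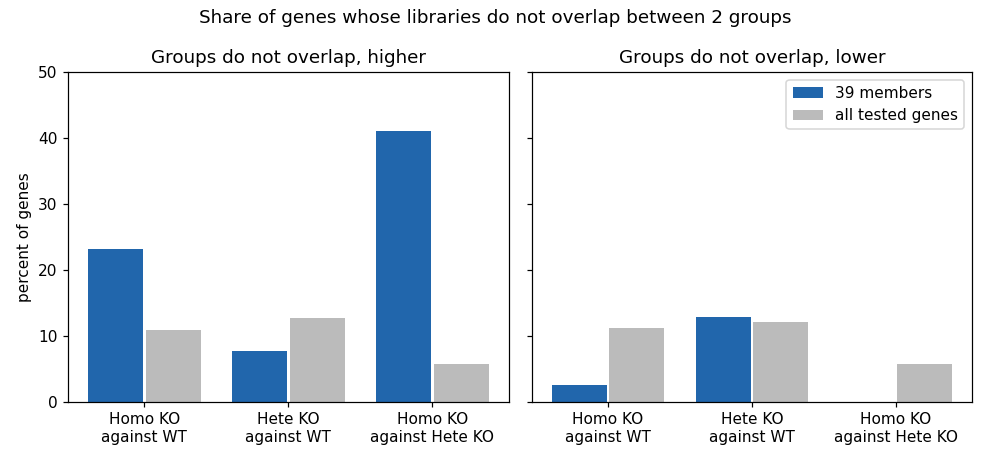
Share of the 39 members and of all 17968 tested genes whose libraries do not overlap between 2 groups of 3, higher on the left and lower on the right. The members' share stands furthest from that of all genes in Homo KO against Hete KO, at 41.0 against 5.73% on the higher side.

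With the 6 KO libraries pooled against WT, a comparison proposed after results of these data were known, 3 members passed the edgeR test, against 2.34% of all genes. Of these, 2 were called higher (0.824% of all genes) and 1 lower (1.52%), and DESeq2 called the same numbers (4.4 and 5.83% of all genes). The libraries did not overlap for 3 members on the higher side (6.37% of all genes) and 1 on the lower side (6.06%), and 25 of the 39 had a log2 fold change above 0 (49.5% of all genes). The 3 called members, Ifih1, Gbp7 and Ifitm3, had the same direction in each KO group alone.

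Ifih1 encodes MDA5, a cytoplasmic sensor of long double-stranded RNA (chromosome 2, 62595798 to 62646255, minus strand, mm10). It had 53.2, 55.7 and 56.2 CPM in Homo KO 1, 2 and 3, 50.2, 51.3 and 52.2 CPM in Hete KO 1, 2 and 3, and 43.4, 37.4 and 39.2 CPM in WT 1, 2 and 3. All 6 KO libraries lay above all 3 WT libraries, and the Homo KO libraries lay above the Hete KO libraries. The KO libraries averaged 53.1 ± 2.42 CPM (SD, n = 6) and the WT libraries 40.0 ± 3.09 CPM (SD, n = 3), a log2 fold change of 0.41 (SE 0.0817, edgeR adjusted p = 0.0419). Taken singly against WT, Homo KO was at 0.46 (edgeR adjusted p = 0.154) and Hete KO at 0.36 (edgeR adjusted p = 0.0833).

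Gbp7, a guanylate-binding protein that helps to attack vacuoles of intracellular pathogens, lies on chromosome 3 at 142530342 to 142550149 (plus strand, mm10). Its level was 62.9, 58.5 and 59.4 CPM in Homo KO, 49.7, 61.4 and 68.0 CPM in Hete KO, and 46.6, 38.1 and 35.9 CPM in WT. Every KO library was above every WT library, although Hete KO 1 was close to WT 1. The means were 60.0 ± 6.03 CPM in the KO libraries (SD, n = 6) and 40.2 ± 5.66 CPM in WT (SD, n = 3), which is 0.58 on the log2 scale (SE 0.123, edgeR adjusted p = 0.0474). A processed pseudogene, Gm43802, overlaps the span of Gbp7, introns included, by 637 bases on the same strand, and reads could be split between them.

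Ifitm3, on chromosome 7 at 141009586 to 141010770 (minus strand, mm10), went the other way. Its level was 18.0, 18.6 and 15.6 CPM in Homo KO, 13.4, 13.3 and 8.31 CPM in Hete KO, and 23.2, 26.1 and 23.1 CPM in WT. The 3 groups did not overlap, with Hete KO lowest and Homo KO between Hete KO and WT. The KO libraries averaged 14.6 ± 3.78 CPM (SD, n = 6) against 24.1 ± 1.73 CPM in WT (SD, n = 3), a log2 fold change of -0.76 (SE 0.157, edgeR adjusted p = 0.0454). Taken singly against WT, it was at -0.47 in Homo KO (edgeR adjusted p = 0.260) and at -1.04 in Hete KO (edgeR adjusted p = 0.0526).

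The calls of Ifih1, Gbp7 and Ifitm3 held with DESeq2 but ended with an offset for transcript length, with limma on log2 TPM, and without any one of 7 of the 9 libraries. Without WT 1 that of Ifitm3 ended too (edgeR adjusted p = 0.0572), and all 3 held without Hete KO 1. All 8 macrophage markers were below 0 in both KO groups together against WT, with a median of -0.93, and 3 of them, the complement genes C1qa, C1qb and C1qc, were called lower. All 4 progenitor markers were below 0 as well, with a median of -0.80, and 2 were called lower. Their summed level was between 220 and 251 CPM in Homo KO, 182 and 203 in Hete KO, and 274 and 341 in WT. The adipocyte, T and NK cell and B cell lists had medians above 0 (0.32, 0.31 and 1.14). The part of any of these cell types in the fall of Ifitm3 was not tested.

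**Figure D4:**
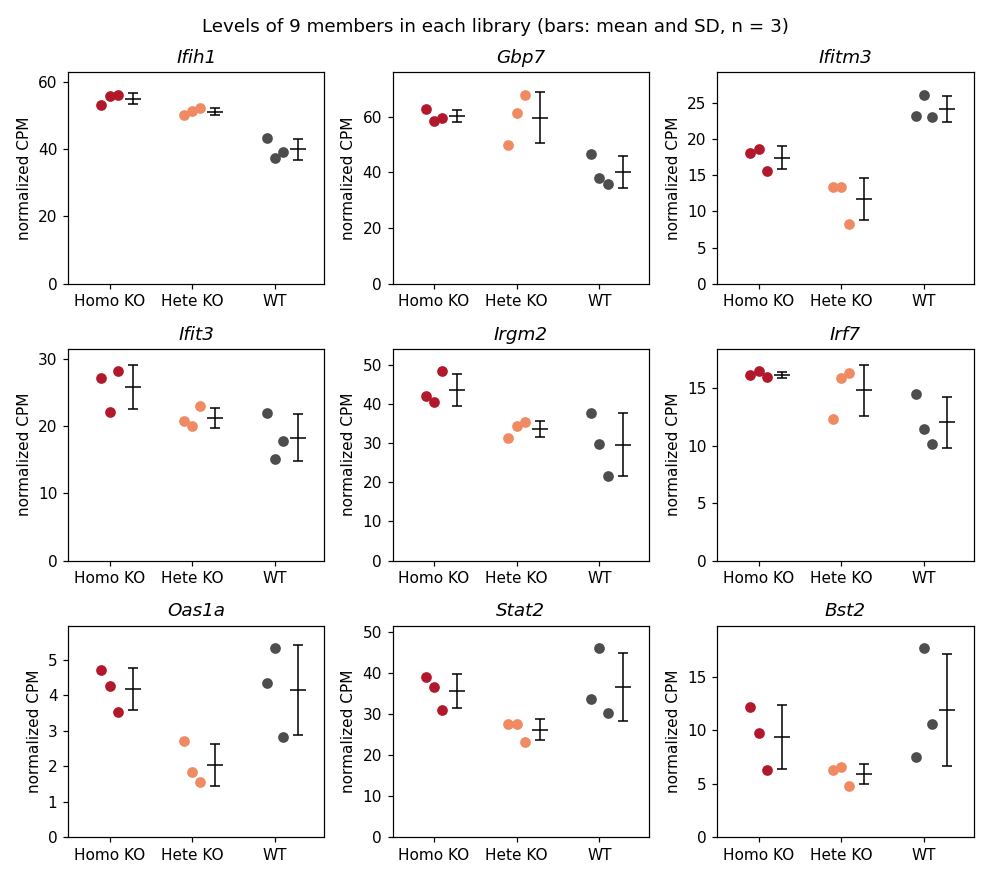
Normalized CPM of 9 of the genes in each library (points) with the mean and SD of each group (bars, n = 3). Ifih1 and Gbp7 are above WT in all 6 KO libraries and Ifitm3 is below WT in all 6, while Oas1a and Stat2 are lowest in Hete KO.

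The other 3 sensors were all below 0 in Hete KO against WT, and 2 of them, Zbp1 and Dhx58, were below 0 in Homo KO against WT. Ddx58 was at a log2 fold change of 0.18 in Homo KO against WT and -0.01 in Hete KO against WT. Zbp1, which senses Z-form nucleic acids and can start necroptosis, had 6.70, 5.80 and 8.13 CPM in Homo KO, 7.01, 4.47 and 4.47 CPM in Hete KO, and 9.02, 7.86 and 6.99 CPM in WT. The 3 groups overlapped, and the log2 fold change was -0.58 in Hete KO against WT (edgeR adjusted p = 0.190). Dhx58, which encodes the sensor LGP2, was within 0.21 of 0 on the log2 scale against WT in both KO groups.

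Of the 4 transcription factors, Irf7, which drives the later wave of type I interferon genes, was the one with groups that did not overlap in Homo KO against WT. It had 16.1, 16.4 and 15.9 CPM in Homo KO, 12.3, 15.8 and 16.3 CPM in Hete KO, and 14.5, 11.5 and 10.2 CPM in WT. The Homo KO libraries were tightly grouped above WT, and 1 of the 3 Hete KO libraries was within the WT range. Homo KO stood 0.43 above WT on the log2 scale (SE 0.171, edgeR adjusted p = 0.267). Stat2, a partner of IRF9 in the ISRE-binding complex, had 39.05, 36.7 and 30.9 CPM in Homo KO, 27.6, 27.6 and 23.2 CPM in Hete KO, and 33.6, 46.0 and 30.2 CPM in WT. Hete KO was below both other groups without overlap, and Homo KO was at 0.44 against Hete KO (edgeR adjusted p = 0.899). Hete KO was at -0.48 against WT (edgeR adjusted p = 0.145), and at -0.27 without WT 2 (edgeR adjusted p = 0.385). Irf9 was at 31.2 ± 3.39 CPM in Homo KO and 25.9 ± 1.60 CPM in Hete KO (SD, n = 3 each), a log2 fold change of 0.27 (edgeR adjusted p = 0.899), also without overlap.

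The IFIT proteins bind foreign RNA and block its translation, and USP18 removes ISG15 from its targets. All 6 members of this group were above 0 in Homo KO against WT, with a median log2 fold change of 0.33, and 5 of 6 in Hete KO against WT, with a median of 0.10. Ifit3 had 27.1, 22.0 and 28.1 CPM in Homo KO, 20.8, 19.9 and 22.9 CPM in Hete KO, and 21.9, 15.1 and 17.8 CPM in WT. Homo KO 2 was only just above WT 1, with a difference from WT of 0.50 on the log2 scale (SE 0.162, edgeR adjusted p = 0.218). Ifit3b, its near-identical neighbour, had 13.3, 15.1 and 13.7 CPM in Homo KO, 11.2, 11.2 and 14.8 CPM in Hete KO, and 12.0, 9.94 and 8.45 CPM in WT, a log2 fold change of 0.47 in Homo KO against WT (edgeR adjusted p = 0.252). Reads that match both genes could be divided between them, so their separate levels are uncertain. With the pair summed to 1 gene, 31 of 38 members were above 0 in Homo KO against WT, with a median of 0.20. Of these 38, 9 had an unadjusted p under 0.05 (23.7%, against 16.4% of all genes). Ifit1, which recognises RNA caps that lack methylation, had 24.2, 22.3 and 25.0 CPM in Homo KO, 20.0, 16.6 and 15.2 CPM in Hete KO, and 24.0, 24.2 and 16.0 CPM in WT. Homo KO was above Hete KO without overlap (0.46, edgeR adjusted p = 0.899), while WT spanned both. Isg15 was at 0.13 in Homo KO against WT with an SE of 0.561, so the difference was smaller than its error.

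Of the 16 OAS, MX and other antiviral effectors, 12 were above 0 in Homo KO against WT and 2 in Hete KO against WT, with medians of 0.15 and -0.22, and all 16 were above 0 in Homo KO against Hete KO, with a median of 0.39. OAS enzymes make an RNA-like messenger that activates RNase L. Oas1a had 4.71, 4.28 and 3.53 CPM in Homo KO, 2.71, 1.85 and 1.56 CPM in Hete KO, and 4.34, 5.33 and 2.82 CPM in WT. Hete KO was below both other groups, at -1.02 against WT (SE 0.314, edgeR adjusted p = 0.111), and Homo KO was at 1.03 against Hete KO (SE 0.314, edgeR adjusted p = 0.899). Hete KO 1 was close to WT 3, and Oas1a had between 32 and 133 counts per library. Its log2 fold change in Hete KO against WT was between -1.26 and -0.38 in the other settings. Oas2 had 18.1, 11.2 and 8.21 CPM in Homo KO, 5.56, 6.70 and 7.00 CPM in Hete KO, and 7.39, 11.8 and 6.77 CPM in WT, at 0.96 in Homo KO against Hete KO (edgeR adjusted p = 0.899). The Homo KO values of Oas2 were widely spread, with Homo KO 1 far above the rest, and without that library the log2 fold change was 0.59. Rtp4, a receptor transporter protein induced by interferon, had 22.2, 16.7 and 11.6 CPM in Homo KO, 13.8, 7.17 and 7.54 CPM in Hete KO, and 13.9, 9.98 and 10.1 CPM in WT, and its groups overlapped (0.83 in Homo KO against Hete KO, edgeR adjusted p = 0.899).

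Bst2, which encodes tetherin and holds budding virions on the cell surface, had 12.2, 9.74 and 6.28 CPM in Homo KO, 6.27, 6.58 and 4.81 CPM in Hete KO, and 7.52, 17.7 and 10.6 CPM in WT. Hete KO lay below WT without overlap (-1.02, SE 0.334, edgeR adjusted p = 0.127), and without WT 2, whose value was highest, the log2 fold change was -0.61 (edgeR adjusted p = 0.361). Parp14, an ADP-ribosyltransferase and the member with the most counts, had 201, 181 and 177 CPM in Homo KO, 159, 147 and 162 CPM in Hete KO, and 154, 173 and 138 CPM in WT. Homo KO was above both other groups without overlap, by 0.26 against Hete KO (edgeR adjusted p = 0.899) and 0.27 against WT (edgeR adjusted p = 0.284). Mx1 and Mx2 belong to a family of dynamin-like antiviral GTPases, and the annotation lists Mx2 as a polymorphic pseudogene. Whether either gene makes a working protein in these mice was not tested. Both were low, Mx1 at a mean of 4.45 TPM and Mx2 at 3.50 TPM over the 9 libraries, and neither had groups without overlap in any pairwise comparison.

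The GBP and IRG genes encode GTPases, induced strongly by interferon gamma, that act on the membranes around intracellular pathogens. All 9 were above 0 in Homo KO against WT, with a median log2 fold change of 0.33, and 7 of 9 in Hete KO against WT, with a median of 0.16. Irgm2 had 42.0, 40.5 and 48.3 CPM in Homo KO, 31.3, 34.2 and 35.3 CPM in Hete KO, and 37.5, 29.6 and 21.6 CPM in WT. Homo KO was above both other groups, at 0.56 against WT (SE 0.179, edgeR adjusted p = 0.217). The annotated spans of Irgm2 and Igtp, introns included, overlap by 7974 bases on the same strand. Whether their transcripts share bases was not tested, and any shared reads could be divided between them. Gbp3 had 51.2, 44.5 and 46.0 CPM in Homo KO, 40.6, 41.1 and 42.1 CPM in Hete KO, and 39.6, 40.4 and 36.9 CPM in WT. The 3 groups were in the order Homo KO, Hete KO, WT without overlap, and Homo KO exceeded WT by 0.28 on the log2 scale (SE 0.0957, edgeR adjusted p = 0.226). The span of Gbp4, introns included, overlaps those of Gbp9 and Gbp8 on the same strand, and the same limit applies to it as to Irgm2.

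Other genes of the pathway were taken from lists. Of 18 genes of interferon receptors and signalling, 0 were called in Homo KO against WT (0% of all genes) or in Hete KO against WT (0.417%). In both KO groups together against WT 0 were called higher (0.824% of all genes) and 1 lower (1.52%). That gene was Stat3, which mainly serves cytokines of the interleukin-6 family, at 118 ± 6.29 CPM in the KO libraries (SD, n = 6) and 154 ± 7.25 CPM in WT (SD, n = 3), a log2 fold change of -0.39 (edgeR adjusted p = 0.0436). Ifngr1, which encodes the ligand-binding chain of the interferon gamma receptor, was at 174 ± 22.9 CPM in the KO libraries (SD, n = 6) and 113 ± 20.9 CPM in WT (SD, n = 3) and just missed the threshold (0.62, edgeR adjusted p = 0.0504). Irf8, a transcription factor of myeloid cells, missed it on the lower side, at 16.7 ± 5.26 CPM in the KO libraries (SD, n = 6) and 34.6 ± 5.21 CPM in WT (SD, n = 3), a difference of -1.06 on the log2 scale (edgeR adjusted p = 0.0544). Ifngr2, the other chain of the interferon gamma receptor, was at -0.29 (edgeR adjusted p = 0.102). Of 18 genes of nucleic acid sensing, 0 were called in any comparison, and their median log2 fold change was -0.06 in Homo KO against WT and -0.32 in Hete KO against WT. Of 45 other interferon-induced genes tested, 1 was called higher and 0 lower in both KO groups together against WT, and 0 in the pairwise comparisons. It was Dtx3l, a ubiquitin ligase that works with PARP9, at 167 ± 16.5 CPM in the KO libraries (SD, n = 6) and 118 ± 9.31 CPM in WT (SD, n = 3), a log2 fold change of 0.49 (edgeR adjusted p = 0.0411). The median of those 45 genes was 0.15 in Homo KO against WT, -0.01 in Hete KO against WT and 0.19 in Homo KO against Hete KO. Over all tested genes the medians in these comparisons were -0.01, 0.02 and 0.00.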

How the data were processed

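RNA sequencing of subcutaneous fat was deposited as 1 transcript table per library. Per the file headers, each table gives transcript length, effective length, estimated counts (expected counts, not normalized) and TPM, which the authors scaled to effective length and library total. The submitters' processing notes name mm10 as the build, and the quantifier is not given in the sources used here. Transcripts were matched by identifier to GENCODE M21, their estimated counts were added up per gene and rounded, and unmatched transcripts were left out. R 4.3.3 with edgeR 4.0.16 fitted all 9 libraries with 1 coefficient per group (filterByExpr, TMM, quasi-likelihood F-test, two-sided, Benjamini-Hochberg over 17968 genes, threshold 0.05, 6 residual degrees of freedom). The script was tested on simulated data. Alternatives used DESeq2 1.42.0, limma 3.58.1 on log2(TPM + 0.5) or log2(TPM + 0.1), other scalings and filters, a length offset, a replicate block, and libraries left out. The settings with lower limits for muscle and liver transcripts (0.5% and 0.05%) were added after seeing the data. The members and lists were chosen with earlier results of these data known, so the list as a whole got no test. Library-by-library values are given for called members and for up to 8 members with the smallest p per comparison, and up to 4 genes with the smallest p per pathway list could be named.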

Additional observations from a re-analysis of the deposited data

How the results depend on the processing

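In Homo KO against WT, 0 members were called by edgeR and 2 (Ifih1 and Gbp7) by DESeq2, which called 653 genes in all against 0. The members' median log2 fold change of 0.23 was between 0.13 and 0.29 with 1 library left out. Without the libraries over 0.5% muscle transcripts (WT 1, WT 2 and Hete KO 2) it was 0.42, with WT 3 as the only WT library. Without those over 0.05% liver transcripts (WT 2 and WT 3) it was 0.17, with WT 1 as the only WT library. Both settings were chosen after seeing the data. In Hete KO against WT, 0 members were called by edgeR (75 genes in all) and 5 by DESeq2 (1674 genes in all). Only Ifitm3 was called with no filter, with the stricter filter and with the replicate block. These settings called 258 of 25436, 99 of 16092 and 248 of 17968 genes. With 1 library left out, between 0 and 2 members were called, when between 0 and 958 genes in all were. The median of -0.07 in Hete KO against WT was 0.064 without the libraries over 1% muscle transcripts (WT 1 and Hete KO 2). It was between -0.13 and 0.072 with 1 library left out, the highest without WT 1. With WT 3 as the only WT library (0.5% muscle limit) it was 0.17, and with WT 1 as the only one (0.05% liver limit) it was -0.15. The sign of this median is therefore not settled. In Homo KO against Hete KO no setting called a member, and the median was between 0.21 and 0.31 with 1 library left out.

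For both KO groups together against WT, the 3 calls came to 0 with the length offset. They came to 0 with limma at either pseudocount, which called 12 (0.5) and 6 (0.1) genes in all. With the replicate block 1 was left, when 487 genes in all were called. Without WT 2, the library over 0.1% liver transcripts, 0 were left, when 3 genes in all were called. With 1 library left out the count was between 0 and 3, at 2 without WT 1 and 3 without Hete KO 1. The median of 0.09 was between 0.02 and 0.20 with 1 library left out. It was 0.31 without the libraries over 0.5% muscle transcripts, with WT 3 as the only WT library. The cause of these shifts was not tested. Genes called over the whole table ranged as widely, at 421 in the main fit, 1838 by DESeq2 and 4 with the length offset. The labels do not say whether replicate numbers pair the libraries. Deviations of same-numbered libraries correlated between -0.07 and 0.46, and those of differently numbered libraries between -0.455 and 0.251. These ranges overlap and do not decide whether the libraries are paired. The fit of the compared groups only was not run for both KO groups, where it equals the main fit.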

Other observations

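The called genes were also looked at by transcript. The difference in Gbp7 lay in Gbp7-201, a transcript of 5614 bases, at 59.3, 55.1 and 54.5 CPM in Homo KO, 42.0, 55.9 and 66.1 CPM in Hete KO, and 41.4, 31.9 and 31.6 CPM in WT. The shorter Gbp7-202 had between 1.84 and 7.75 CPM in any library. Ifih1 was divided mainly between Ifih1-201 and Ifih1-202, which are alternative transcripts whose estimated shares vary between libraries of 1 group. Ifitm3 was counted on 1 transcript of 678 bases.

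Genes of antigen processing, which interferon gamma induces through NLRC5 and other factors, had a median log2 fold change of -0.17 in both KO groups together against WT. The median over all genes was -0.01. None was called (0 of 17, against 2.34% of all genes). The class I heavy chain gene H2-K1 had 384, 416 and 389 CPM in Homo KO, 431, 270 and 339 CPM in Hete KO, and 417, 675 and 601 CPM in WT (-0.61, edgeR adjusted p = 0.0828). Nlrc5, a transactivator of class I genes, had 111, 114 and 107 CPM in Homo KO, 83.6, 95.9 and 92.5 CPM in Hete KO, and 82.5, 85.7 and 87.1 CPM in WT. Its Homo KO libraries lay above all others, at 0.38 against WT (edgeR adjusted p = 0.162).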
